A study of Mus musculus with 9 samples.

Results

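General leukocyte genes, led by Ptprc, which encodes CD45, were followed across bone marrow (BM) cells sorted as endothelial cells (ECs). The 10 genes were taken by name from the 46078 genes of the deposited count table, and all 10 were among the 15937 genes with enough counts to be tested. They are Ptprc itself, a group of 5 that megakaryocytes and platelets are also known to make (Fcer1g, Vav1, Hcls1, Rac2 and Coro1a), and a group of 4 usually assigned to other leukocytes (Laptm5, Cd52, Tyrobp and Cd68).

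RNA-seq was performed on CD45-Ter119-CD31+ cells of the BM of normal wild-type B6 mice, a background every library shares, and the sort then divided them by Sca-1 into a Sca-1+ fraction (4 libraries, named here by the last number of their labels as 7, 13, 15 and 19) and a Sca-1- fraction (5 libraries, 8, 10, 14, 16 and 22). The SMART-Seq v4 kit amplified 2 ng of RNA per library into cDNA, and its PCR copies are part of the counts because molecules were not tagged. The labels give no age, and do not say which libraries come from separate mice although the labels of 15 and 16 share a number, so that p-values measure the spread between these libraries. The labels of 13, 14 and 22 also carry the mark CD452 and that of 10 the same digits without the letters, those of 8, 15, 16 and 19 carry wt, and that of 7 neither, and the labels do not say what the marks mean. The running numbers that open the labels form separate series for the fractions, and a batch along them cannot be told apart from the fraction.

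CD45 is a membrane tyrosine phosphatase of nucleated blood cells that removes an inhibitory phosphate from Src family kinases. Those kinases phosphorylate the ITAM motifs of small adaptor chains such as FcR gamma (Fcer1g) and DAP12 (Tyrobp), which recruit Syk. Downstream, Vav1 loads Rac GTPases, Rac2 among them, and the actin regulators Coro1a and Hcls1 act on the same cytoskeletal pathway, which platelets use when collagen engages glycoprotein VI together with FcR gamma.

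Library totals lay between 21581653 and 25959818 counts, and 3 counts corresponded to 0.0996 to 0.209 CPM (counts relative to TMM-scaled library size), which covers counting error only. The sorted label was checked against marker genes. The 20 endothelial markers took 1.61 to 2.23% of counts in the Sca-1+ libraries, but 0.125 to 0.159% in the Sca-1- libraries, where 12 megakaryocyte markers took 2.73 to 5.365% (0.00424 to 0.01004% in Sca-1+). In the Sca-1- libraries the markers therefore went against the endothelial label. Basophil and mast cell markers took 1.57% in Sca-1- 16 and 0.00652 to 0.189% in the other Sca-1- libraries, and neutrophil markers took 0.0869% in Sca-1+ 19 and 0.00099 to 0.00686% in the other Sca-1+ libraries. The libraries 19 and 16 thus stood apart within their fractions for these lists, and values without them are given where they matter. Other libraries differed as well. Neutrophil markers took 0.0764% in Sca-1- 14 and 0.0152 to 0.0343% in the other Sca-1- libraries. B and plasma cell markers took 0.0436% in Sca-1- 22 and 0.00102 to 0.0128% in the other Sca-1- libraries. The part of these markers in the results below was not tested, and in bulk RNA more cells of a type cannot be told apart from more RNA per cell.

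Of the 10 genes, 8 were lower in Sca-1+ than in Sca-1- libraries, 0 were higher, and Cd52 and Cd68 did not pass the test (edgeR's quasi-likelihood test, adjusted p under 0.05). Against these counts, 44.8% of all genes tested passed, 21.4% being lower and 23.3% higher in Sca-1+, and the median log2 fold change of all genes was 0.07. The 5 genes shared with megakaryocytes were all lower (median log2 fold change -4.68), as were Laptm5 and Tyrobp of the 4 genes of other leukocytes (median -3.72). For the same 8 genes every Sca-1- library lay above every Sca-1+ library, which held for 18.8% of all genes tested, whereas the opposite order held for 24.8% of all genes and for 0 of the 10. Ptprc, Vav1 and Cd52 passed the count filter through Sca-1- libraries. Such a gene could hardly be called higher in Sca-1+, so these counts and medians are a description.

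**Figure D1:**
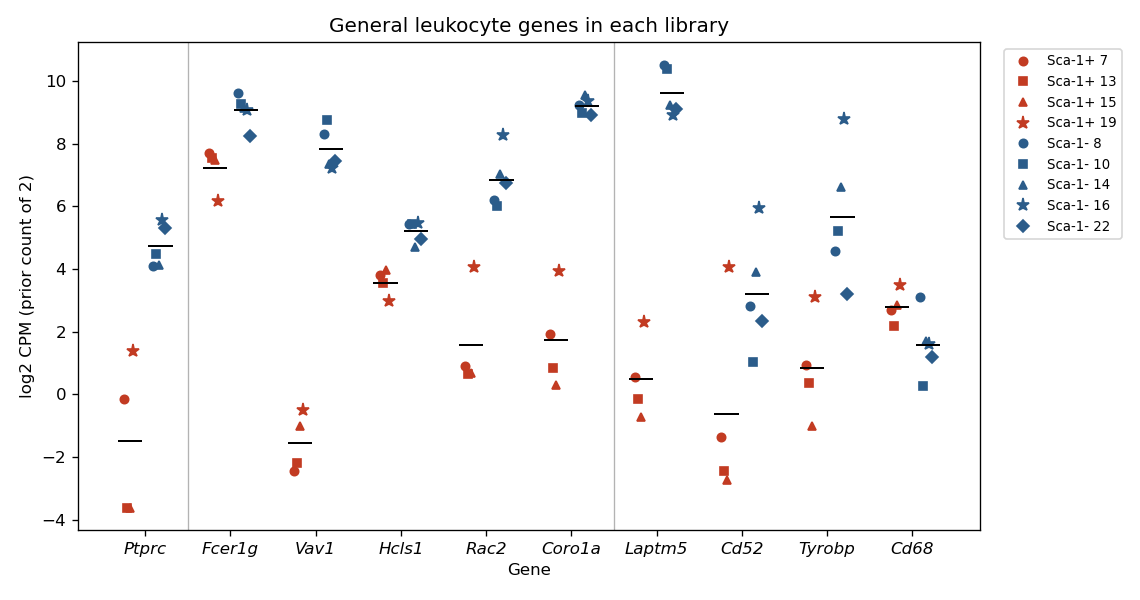
Level of each of the 10 genes in each library, as log2 CPM with a prior count of 2. Red marks are the 4 Sca-1+ and blue marks the 5 Sca-1- libraries, bars are the means, and vertical lines separate Ptprc, the 5 genes shared with megakaryocytes and the 4 of other leukocytes. The fractions do not overlap for 8 genes and overlap for Cd52 and Cd68, and the red star (Sca-1+ 19) is the highest Sca-1+ mark for 8 genes but the lowest for Fcer1g and Hcls1.

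Ptprc (ENSMUSG00000026395, GRCm38 chromosome 1 from 138062861 to 138175708, minus strand) encodes the protein that the sort excluded. Its level was 0.818, 0, 0 and 2.56 CPM in Sca-1+ 7, 13, 15 and 19, resting on 24, 0, 0 and 66 counts. In Sca-1- 8, 10, 14, 16 and 22 it was 17.2, 22.3, 17.3, 47.8 and 39.7 CPM, on 286 to 1440 counts. The transcript was thus counted in every library sorted as CD45-Sca-1-, most in 16 and 22, and was not detectable at this depth in 2 of 4 Sca-1+ libraries. On the log2 scale the fitted change (Sca-1+ over Sca-1-) was -5.10 ± 1.23 (standard error, as for each such value below) with an adjusted p of 0.00691, and it was -6.69 (adjusted p = 0.00368) without Sca-1+ 19. Per kilobase of exon, Ptprc was the lowest of the 10 genes in Sca-1- libraries, at 1.58 ± 0.768 CPM per kb (SD, n = 5). On this length-scaled level Cd68 was the next lowest at 2.88 ± 2.3 (SD, n = 5), a difference within their spread. The length was the union of all annotated exons, 18313 bases for Ptprc and 3788 for Laptm5, the next longest of the 10. The place of Ptprc rests on it, since by CPM alone its Sca-1- mean (28.9) exceeded those of Cd52 (18.1) and Cd68 (3.62).

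By the same length-scaled level the other genes in Sca-1- libraries ranked as Fcer1g (645 ± 201, SD, n = 5), Laptm5 (236 ± 126), Coro1a (216 ± 37.9), Tyrobp (184 ± 274), Vav1 (67.1 ± 33.1), Rac2 (44.1 ± 32.4), Cd52 (15.3 ± 20.9) and Hcls1 (14.99 ± 3.35). Fcer1g stood above the rest, with its lowest library at 347 CPM per kb, although single libraries of Laptm5 (up to 391) and Tyrobp (up to 666) reached its range. The neighbours Laptm5, Coro1a and Tyrobp did not differ beyond their spread, and neither did Vav1 from Rac2 or Cd52 from Hcls1. In Sca-1+ libraries Fcer1g was again first (186 ± 70.4, SD, n = 4), followed by Cd68 (5.77 ± 2.23), Hcls1 (4.83 ± 1.34) and Tyrobp (4.51 ± 5.65), and Ptprc was last (0.0461 ± 0.0658). That last place also rests on the exon length, since by CPM alone the Sca-1+ mean of Ptprc (0.843) exceeded that of Vav1 (0.318).

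Fcer1g (ENSMUSG00000058715, chromosome 1 from 171229572 to 171234365, minus strand) encodes the FcR gamma chain, the signalling partner of glycoprotein VI and of several Fc and lectin receptors. It was at 209.9, 187, 180.1 and 72.1 CPM in the 4 Sca-1+ libraries, in the order given above. In the 5 Sca-1- libraries it was at 792, 614, 571, 539.6 and 303 CPM. The fractions did not overlap, yet Fcer1g stayed at 72.1 CPM or more in Sca-1+ libraries, including the 2 with no Ptprc count. Its log2 fold change was -1.80 ± 0.37 (adjusted p = 0.00317). Among the Sca-1+ libraries Fcer1g was lowest in 19, the library with the most Ptprc, Rac2, Coro1a, Laptm5, Cd52 and Tyrobp.

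Vav1 (ENSMUSG00000034116, chromosome 17 from 57279100 to 57328031, plus strand), an exchange factor that activates Rac GTPases, showed the largest difference of the 10. Its Sca-1+ levels were 0.102, 0.136, 0.414 and 0.62 CPM, close to the level of 3 counts. Its Sca-1- levels were 317, 429.7, 165, 151 and 173 CPM, a mean of 247 ± 122 (SD, n = 5). The lowest Sca-1- library was far above the highest Sca-1+ library, and the log2 fold change was -9.60 ± 0.71 (adjusted p = 1.67e-05). Vav1 was highest in Sca-1- 10 and 8.

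Hcls1 (ENSMUSG00000022831, chromosome 16 from 36934983 to 36963212, plus strand) encodes HS1, the blood-cell relative of cortactin. It was at 13.8, 11.6, 15.6 and 7.74 CPM in Sca-1+ and at 43.7, 43.8, 26.3, 44.2 and 31.3 CPM in Sca-1- libraries. The fractions did not overlap but were close, and as with Fcer1g the lowest Sca-1+ level was in 19. The change was -1.63 ± 0.28 (log2, adjusted p = 0.000976), the smallest of the 8 that passed.

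Rac2 (ENSMUSG00000033220, chromosome 15 from 78559167 to 78572783, minus strand), the Rac GTPase of blood cells, was at 1.77, 1.498, 1.52 and 16.6 CPM in Sca-1+ libraries. In Sca-1- libraries it was at 73.1, 64.4, 130.0, 310.4 and 106 CPM. Within each fraction 1 library stood out, 19 by 9.35 times over the next Sca-1+ library, and 16 as the highest Sca-1- library. The log2 difference was -4.68 ± 0.95 (adjusted p = 0.00275) and was -6.41 (adjusted p = 0.000247) without Sca-1+ 19.

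Coro1a (ENSMUSG00000030707, chromosome 7 from 126699773 to 126707787, minus strand) encodes coronin 1A, an actin-binding protein. It was at 3.75, 1.70, 1.14 and 15.2 CPM in Sca-1+ and at 605, 513, 748, 655 and 490.4 CPM in Sca-1- libraries. Its highest Sca-1- library was 1.52 times the lowest with TMM scaling and 2.56 times by library size alone. A log2 fold change of -6.79 ± 0.85 was fitted (adjusted p = 0.000186), and -8.09 (adjusted p = 6.2e-05) without Sca-1+ 19. Its exons share 26 bases with those of Bola2 on the opposite strand, and whether the counting used strand is not given in the sources used here.

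Promoter sequence was available from RefSeq (GRCm38.p6) for 7 of the 10 genes, all but Rac2, Cd52 and Tyrobp. The 120 bases before the start were searched on both strands for the Ets-type motif GGAAGT. The same windows were searched on both strands for the motif AGATAA, which GATA factors are known to bind. No match of these motifs overlapped a match of the other. GGAAGT or its reverse complement was found for 4 of the 7 genes (Ptprc, Vav1, Hcls1 and Laptm5), against 11.6% of 32851 promoters, and AGATAA for Ptprc alone, at its other annotated start, against 4.36%. The windows of the 4 genes that touch no annotated exon are shown because they pair the gene that differed most (Vav1) and the called gene that differed least (Hcls1), both with GGAAGT, with Coro1a and Cd68, which hold neither motif. Each runs from 5′ to 3′ on the gene's own strand, with GGAAGT in capitals. The windows lie at chr17:57278980-57279099 (plus), chr16:36934863-36934982 (plus), chr7:126704817-126704936 (minus) and chr11:69666171-69666290 (minus).
Vav1: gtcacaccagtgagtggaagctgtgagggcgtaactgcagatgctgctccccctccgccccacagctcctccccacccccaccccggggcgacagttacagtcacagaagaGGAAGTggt
Hcls1: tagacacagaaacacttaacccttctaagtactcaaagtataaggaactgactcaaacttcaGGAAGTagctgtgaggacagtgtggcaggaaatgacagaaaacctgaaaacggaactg
Coro1a: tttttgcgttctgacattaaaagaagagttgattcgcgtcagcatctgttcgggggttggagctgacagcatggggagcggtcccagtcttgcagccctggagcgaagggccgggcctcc
Cd68: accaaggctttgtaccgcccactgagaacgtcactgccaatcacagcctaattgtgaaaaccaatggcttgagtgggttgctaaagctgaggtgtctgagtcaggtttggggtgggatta
The first base of GGAAGT lies 9 bases before the start of Vav1 and 58 bases before that of Hcls1. A match of letters in these windows is a description and not a test of binding.

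Laptm5 (ENSMUSG00000028581, chromosome 4 from 130913125 to 130936141, plus strand), a lysosomal membrane protein of blood cells, was at 1.40, 0.817, 0.518 and 4.84 CPM in Sca-1+ libraries. In Sca-1- libraries it was at 1482, 1338, 610.3, 482 and 553 CPM, a mean of 893 ± 477 (SD, n = 5). Libraries 8 and 10 were the highest. Although listed with the genes of other leukocytes, it differed nearly as much as Vav1, with a log2 change of -8.88 ± 0.91 (adjusted p = 6.21e-05). Without Sca-1+ 19 it was -9.93 (adjusted p = 8e-05).

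Tyrobp (ENSMUSG00000030579, chromosome 7 from 30413760 to 30417585, plus strand) encodes DAP12, the ITAM adaptor of myeloid and natural killer cells. It was at 1.84, 1.19, 0.414 and 8.60 CPM in Sca-1+ libraries and at 23.7, 36.9, 98.5, 444 and 9.04 CPM in Sca-1- libraries. The fractions did not overlap, but Sca-1- 22 lay just above Sca-1+ 19, and Sca-1- 16 was 49.1 times Sca-1- 22. Tyrobp differed by -5.35 ± 1.39 on the log2 scale (adjusted p = 0.00999). It was -6.72 (adjusted p = 0.00839) without Sca-1+ 19 and -3.81 (adjusted p = 0.0129) without Sca-1- 16.

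Cd52 (ENSMUSG00000000682, chromosome 4 from 134082448 to 134095082, minus strand) encodes a small surface glycoprotein of lymphocytes and other leukocytes. It was at 0.307, 0.102, 0.0691 and 16.6 CPM in Sca-1+ and at 7.03, 1.96, 15.02, 61.7 and 4.97 CPM in Sca-1- libraries. Sca-1+ 19 lay above 4 of the 5 Sca-1- libraries, while the other 3 Sca-1+ libraries lay below all of them. The test did not pass (log2 fold change -2.09 ± 1.56, adjusted p = 0.302). Without Sca-1+ 19 it did, at -6.78 (adjusted p = 0.00572), and without Sca-1- 16 the value was -0.77 (adjusted p = 0.697). The exons of Cd52 share 172 bases with Crybg2 on the opposite strand.

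Cd68 (ENSMUSG00000018774, chromosome 11 from 69664213 to 69666153, minus strand), a lysosomal glycoprotein abundant in macrophages, was the only gene of the 10 with a higher mean in Sca-1+ libraries. It was at 6.41, 4.43, 7.08 and 11.1 CPM in Sca-1+ and at 8.59, 1.12, 3.18, 2.99 and 2.20 CPM in Sca-1- libraries. The fractions overlapped through Sca-1- 8, and the test did not pass (log2 fold change 1.01 ± 0.56, adjusted p = 0.169). Without Sca-1- 8 it passed as higher in Sca-1+, at 1.54 (adjusted p = 0.0194). Scaled to the endothelial markers, which shifts the median of all genes to -4.37, the sign turned to -3.30 (adjusted p = 0.000611). Of the 12 monocyte and macrophage markers, 9 were tested, of which 1 was higher (Cd14), 1 lower (Ms4a6c) and 7 did not pass, and the list took 0.0153 to 0.0291% of counts in Sca-1+ and 0.00144 to 0.0105% in Sca-1- libraries. Among all genes tested, 21.4% were lower and 23.3% higher in Sca-1+.

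The Sca-1- libraries differed among themselves in which of the genes they held. Laptm5 and Vav1 were lower in Sca-1- 16 and 22 than in 8 and 10, as were the megakaryocyte markers, with TMM scaling and by library size alone. Fcer1g had this order with TMM only, since by library size alone it was at 531, 356, 564, 626 and 345 CPM in Sca-1- 8, 10, 14, 16 and 22. Tyrobp, Cd52 and Rac2 peaked in Sca-1- 16 under both scalings, as did the basophil and mast cell markers and also the endothelial markers, whose centred means were 3.72 and 0.56 there with TMM. For the endothelial markers Sca-1- 22 was close (0.54), and by share of counts they were highest in 10 (0.159%, against 0.144% in 16). To describe this, each gene's log2 CPM was centred on its mean over the 5 Sca-1- libraries and compared with the mean profile of each marker list by the root mean square difference, a measure chosen after the values were seen and given without a test. The distance of Laptm5 to the 12 megakaryocyte markers was 0.25 and to the 8 tested basophil and mast cell markers 2.82. For Vav1 the distances were 0.33 and 2.71, for Fcer1g 0.63 and 2.40. For Tyrobp the order turned, at 2.37 to the megakaryocyte and 0.96 to the basophil and mast cell markers, and for Cd52 it turned as well, at 2.32 and 1.59, although Cd52 lay nearest to the endothelial markers (1.29). Laptm5 thus followed the profile of the megakaryocyte markers, although it had been placed with the genes of other leukocytes. The profile was not particular to megakaryocyte markers. Laptm5, Vav1 and Fcer1g each lay nearer to 9 erythroid markers, at distances of 0.13, 0.30 and 0.57. Fcer1g was also at 0.61 from the 3 tested T and NK cell markers. Ptprc and Rac2 lay at 0.58 and 0.57 from the endothelial markers and farther from the megakaryocyte markers (1.34 and 1.56), and Rac2 was at 1.72 from the basophil and mast cell markers. Coro1a and Hcls1 lay nearest to the T and NK cell markers (0.344 and 0.453) and farther from the megakaryocyte markers (0.879 and 0.775). Cd68 lay nearest to the endothelial markers (0.867) and was at 1.21 from the megakaryocyte markers. The 5 points share their libraries and depth scaling, and 5 libraries are few for such a comparison.

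**Figure D2:**
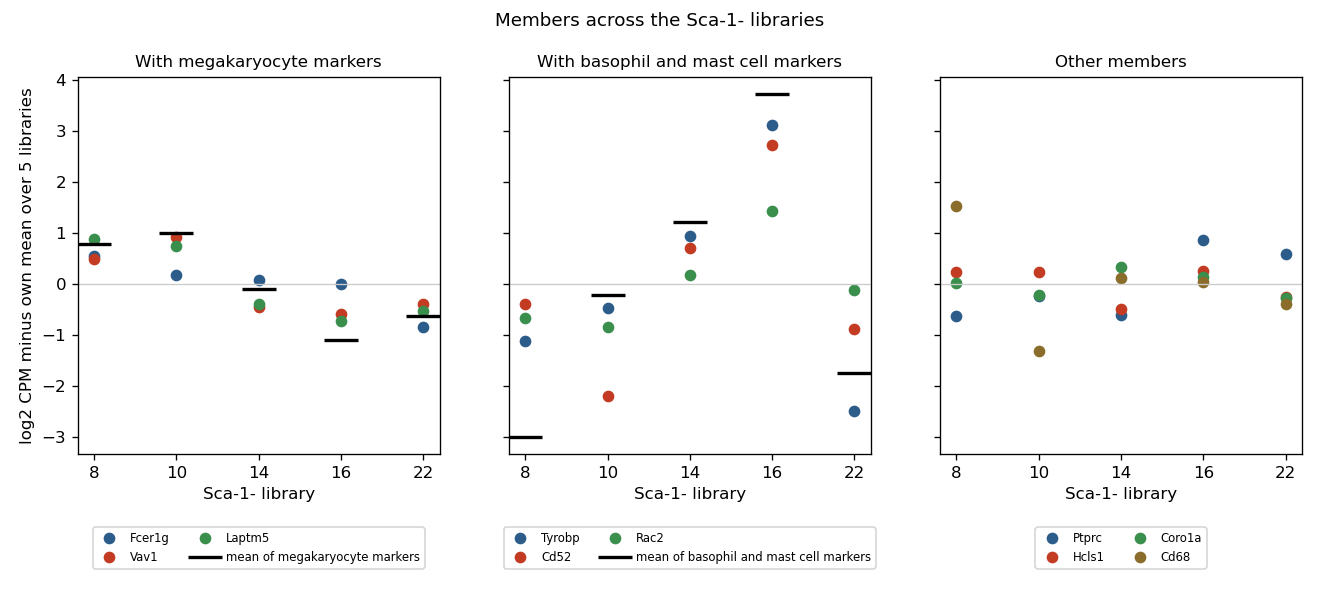
Centred log2 CPM with TMM scaling (value minus the gene's own mean over the 5 Sca-1- libraries) for each library. Points are genes, and black bars are the mean of 12 megakaryocyte markers (left) or 8 basophil and mast cell markers (middle). Vav1 and Laptm5 are highest in libraries 8 and 10 and Tyrobp, Cd52 and Rac2 in 16. On this scale Fcer1g is highest in 8 and Coro1a and Hcls1 stay within 0.5 of their means, but by library size alone Fcer1g is highest in 16 (0.41), Coro1a reaches -0.80 and Hcls1 0.66.

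The ratio of the ITAM adaptors varied as widely between libraries. Counts of Fcer1g over Tyrobp were 33.4, 16.7, 5.80, 1.22 and 33.5 in Sca-1- 8, 10, 14, 16 and 22. In Sca-1+ 7, 13, 15 and 19 they were 114, 157, 435 and 8.38. The ratio was lowest in 16 within Sca-1- and in 19 within Sca-1+ libraries, and the fractions overlapped through 19. Per exon length Fcer1g exceeded Tyrobp in every library but Sca-1- 16, where the ratio was 0.927.

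Receptors that signal through each adaptor were then examined. Of 10 receptors for FcR gamma, 6 were tested and 5 were lower in Sca-1+ (Gp6, Clec4d, Fcer1a, Clec4e and Fcgr3), with 0 higher and a median log2 fold change of -6.82. Of all genes tested, 21.4% were lower and 23.3% higher. Gp6 and Clec4d, at most 0.375 and 0.271 CPM in Sca-1+, passed the count filter through Sca-1- libraries. A gene that passes this way could hardly be called higher in Sca-1+, so the count and median are a description. Gp6, the collagen receptor glycoprotein VI of platelets, was at 0.0341, 0.375, 0.173 and 0 CPM in Sca-1+ and at 677, 925, 359, 130.5 and 224 CPM in Sca-1- libraries (log2 fold change -11.56). Like Laptm5 it was highest in Sca-1- 8 and 10 and lowest in 16. Fcer1a, the alpha chain of the IgE receptor, was at 1.68, 27.2, 81.5, 423 and 7.45 CPM in Sca-1- and at most 1.39 CPM in Sca-1+ libraries (log2 fold change -8.28), and Fcgr3 reached 223 CPM in Sca-1- 16 against 5.09 to 37.0 CPM in the other Sca-1- libraries (-4.63). The C-type lectins Clec4d (24.8 to 86.3 CPM in Sca-1-, at most 0.271 in Sca-1+, log2 fold change -9.17) and Clec4e (5.81 to 11.8 against at most 0.852 CPM, -5.37) were called as well. Oscar did not pass (at most 1.75 CPM, log2 fold change -1.17, adjusted p = 0.387).

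Of 8 receptors for DAP12, 4 were tested, 3 were lower in Sca-1+ (Trem1, Trem2 and Cd300lb) and 0 higher, with a median of -5.50. Of all genes tested, 21.4% were lower and 23.3% higher. Trem1 and Trem2 passed the count filter through Sca-1- libraries and could hardly be called higher in Sca-1+, so this count is a description as well. Trem1, a receptor that amplifies myeloid inflammation, was at 28.1, 38.5, 18.8, 8.04 and 10.2 CPM in Sca-1- libraries and was counted in 1 Sca-1+ library (0.375 CPM, log2 fold change -7.69). Trem2 ranged from 2.29 to 11.8 CPM in Sca-1- and was counted in 1 Sca-1+ library (0.232 CPM, -6.67). Cd300lb was highest in Sca-1- 16 at 51.9 CPM, against 3.34 to 10.3 CPM in the other Sca-1- libraries (-4.34). Trem1 and Trem2 were highest where Tyrobp was not, in Sca-1- 8 and 10, whereas Cd300lb peaked with Tyrobp in 16. Trem3 did not pass (at most 3.06 CPM, log2 fold change -2.24, adjusted p = 0.194). Clec5a (at most 3.85 CPM) and Siglech (at most 1.18 CPM) reached the level for testing in too few libraries to be tested.

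**Figure D3:**
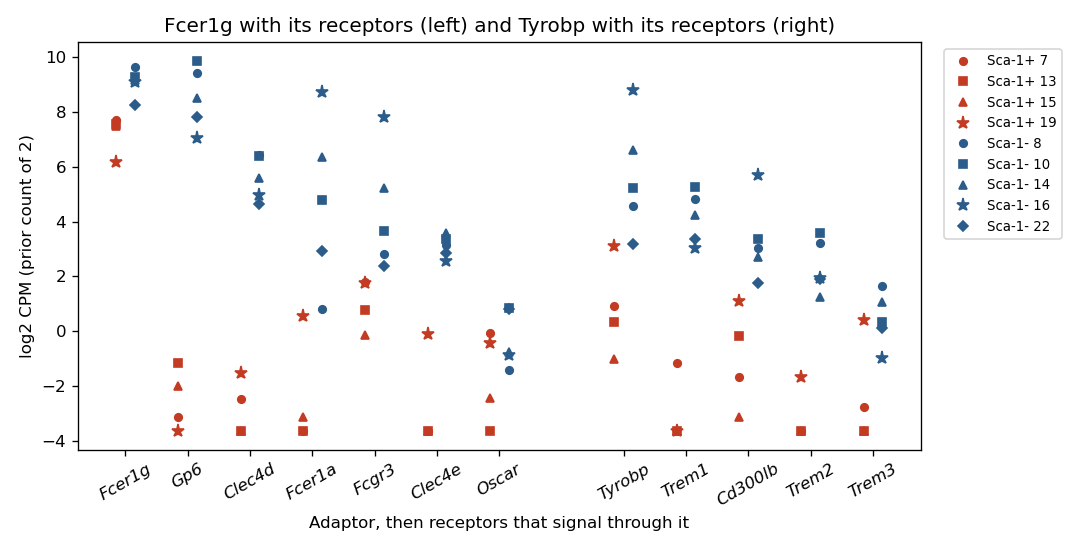
Log2 CPM (prior count of 2) in each library of Fcer1g and its tested receptors (left) and of Tyrobp and its tested receptors (right). Red marks are Sca-1+ and blue marks Sca-1- libraries, and marks at the bottom are counts of 0. Gp6, Clec4d and Trem1 separate the fractions most widely, and the blue star (Sca-1- 16) is on top for Fcer1a, Fcgr3, Tyrobp and Cd300lb.

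Downstream of the adaptors, 17 ITAM pathway proteins were listed and 16 tested, of which 11 were lower in Sca-1+, 2 higher and 3 did not pass (median log2 fold change -3.05, against 0.07 for all genes). The shares among all genes tested were 21.4% lower and 23.3% higher. The largest decreases were of Grap2 (-10.17), the adaptor Gads, and Lat (-9.58), the scaffold that binds it, at 330.4 to 695 CPM in Sca-1- and 0.348 to 0.818 CPM in Sca-1+ libraries. Higher in Sca-1+ were the kinase Lck (3.71, 11.7 to 20.1 against 0.628 to 1.40 CPM) and the phospholipase Plcg1 (2.10). Syk, the kinase that binds phosphorylated ITAMs, was at 0.749 to 3.44 CPM in Sca-1+ and at 107 to 457 CPM in Sca-1- libraries (-6.73, adjusted p = 4.67e-05), a value given for its place in the pathway and outside the rule for named genes.

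Of 18 proteins of the Rac and actin pathway, all tested, 9 were lower in Sca-1+, 2 higher and 7 did not pass (median -1.78), beside the 21.4% lower and 23.3% higher among all genes. Was, the Wiskott-Aldrich protein, fell by 8.39 and Dock2, a Rac exchange factor, fell by 5.49 on the log2 scale. Elmo1 (1.74) and Prex1 (1.64), both regulators of Rac activation, were higher. Of the 26 wider leukocyte genes, 24 were lower and 0 higher (median -4.43), with Plek (-9.07) and Was at the low end. Lcp1 (-0.27, adjusted p = 0.816) and Cybb (0.11, adjusted p = 0.966) were the 2 that did not pass and lay at the other end. Without Sca-1- 16 Lcp1 was higher in Sca-1+ (1.32, adjusted p = 0.0207). Under scaling to the endothelial markers Lck, Plcg1, Elmo1 and Prex1 turned to negative values (-0.62, -2.26, -2.58 and -2.84). In the ITAM, Rac and wider leukocyte lists, a gene that passed the count filter through Sca-1- libraries could hardly be called higher in Sca-1+. The counts and medians of these lists are therefore a description.

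Close relatives of 8 of the 10 genes were listed as well, and these 15 paralogs divided into 6 lower, 4 higher and 5 that did not pass (median -0.51). Of all genes tested 44.8% passed, 21.4% lower and 23.3% higher in Sca-1+. Among receptor phosphatases, Ptprj, which platelets carry as CD148, was at 38.4 to 198 CPM in Sca-1- and 0.345 to 1.29 CPM in Sca-1+ libraries (log2 fold change -6.81, adjusted p = 8.58e-05). Ptprb, the vascular endothelial phosphatase, went the other way, at 195 to 258 CPM in Sca-1+ and 0.209 to 8.8 CPM in Sca-1- libraries (5.34, adjusted p = 0.000226), and Ptpre fell by 1.25. Per kilobase, Rac1, the ubiquitous Rac, was at 746 ± 345 (SD, n = 5) in Sca-1- and 188 ± 14.3 (SD, n = 4) in Sca-1+ libraries, above Rac2 in both fractions (44.1 ± 32.4 and 1.72 ± 2.41). The log2 fold change of Rac1 was -1.99, although 2309 bases of its exons overlap Daglb on the opposite strand, and Rac3 was 3.13 at no more than 3.76 CPM.

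Vav2 (0.51, adjusted p = 0.69) and Vav3 (-1.32, adjusted p = 0.0501) did not pass. Per kilobase Vav3 was at 4.61 ± 1.2 (SD, n = 4) in Sca-1+ libraries, where Vav1 was at 0.0863 ± 0.0664, and in Sca-1- libraries the order was the opposite (11.5 ± 7.68 and 67.1 ± 33.1, SD, n = 5). Cttn, the widely expressed cortactin, fell by 1.58, close to the 1.63 of Hcls1 (-1.63). Coro1c fell by 1.79 and Coro1b did not pass (-0.51). Per kilobase they were at 13.5 ± 1.42 and 87.2 ± 10.9 (SD, n = 4) in Sca-1+ libraries, where Coro1a was at 1.96 ± 2.37. Laptm4a (0.93) and Laptm4b (3.65) were higher in Sca-1+, opposite to Laptm5. Hcst, which encodes the adaptor DAP10, was at 13.97 to 37.2 CPM in Sca-1- and 0.387 to 0.545 CPM in Sca-1+ libraries (-5.88). Lamp1 (-0.07) and Lamp2 (-0.25), relatives of Cd68, did not pass. Scaled to the endothelial markers, Laptm4a (-3.73), Laptm4b (-0.69) and Rac3 (-1.46) turned sign, and with RLE factors Laptm4a and Rac3 did not pass (adjusted p = 0.0715 and 0.0565) while Vav3 did. Exons of Dock2, Plcg1, Elmo1, Lcp1, Coro1b and Coro1c share 372 to 627 bases with other genes, mostly on the opposite strand, and their counts are uncertain to that extent.

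**Figure D4:**
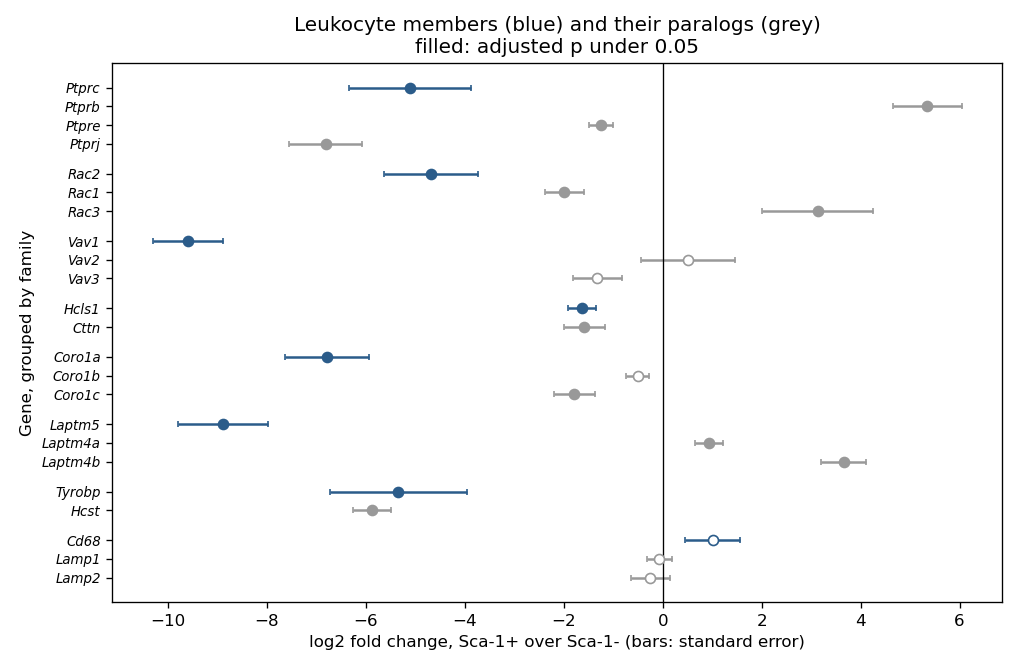
Log2 fold change (Sca-1+ over Sca-1-, bars are standard errors) of 8 of the 10 genes (blue) and of their paralogs (grey), with filled marks for an adjusted p under 0.05. Ptprb, Laptm4b and Rac3 lie to the right of 0 beside Ptprc, Laptm5 and Rac2 to the left, and Ptprj and Hcst lie to the left with their blue relatives.

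Genes with the pattern most like Ptprc over all 9 libraries were found by the root mean square difference of centred log2 CPM among the other 15936 tested genes. Among the 5 nearest were Dock2 (0.642), Adcy7 (0.74), an adenylyl cyclase, Cd300a (0.877), an inhibitory leukocyte receptor, and Phex (0.886), a membrane peptidase. Dock2 averaged 0.481 CPM in Sca-1+ and 21.5 CPM in Sca-1- libraries, with an adjusted p of 0.00751. For Fcer1g the nearest were Lst1 (0.276), Limd2 (0.28), Nanos3 (0.303), Gm16323 (0.305) and Mri1 (0.324), and Limd2 averaged 52.4 CPM in Sca-1+ and 221 CPM in Sca-1- libraries. None of the other 9 genes was among the 5 nearest to either, and the 9 libraries include the difference between fractions, so these distances are a description.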

How the data were processed

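RNA-seq was analysed from 9 libraries of sorted BM cells, grouped by the sorted fraction in the deposited labels. The authors deposited raw counts (whole reads assigned to each gene) in 1 table. The submitters' processing notes name STAR, featureCounts and mm10, without versions. The use of strand is not given in the sources used here. All sample columns were used.

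Differences between fractions were fitted with edgeR 4.0.16 (R 4.3.3). The filter was filterByExpr (minimum count 10, minimum total count 15), libraries were normalized by TMM, and fractions were compared with the two-sided quasi-likelihood F-test, with Benjamini-Hochberg adjustment over 15937 genes and a threshold of 0.05. For levels, CPM used effective (TMM) library sizes. Log2 CPM added a prior count of 2. The floor was 3 counts. The biological coefficient of variation was 0.549. Alternatives changed the scaling, the filter, the test (DESeq2 1.42.0, limma 3.58.1 voom) and the libraries included, and their effect is given in the closing section.

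The 10 genes and all lists were chosen with earlier results of these data known, from general knowledge. Of 207 listed genes 206 were in the table. Genes named are the 10, their 15 paralogs, the receptors that passed or reached 1 CPM in any library, the 2 largest and 2 smallest log2 fold changes of the wider leukocyte, ITAM and Rac lists, and the 5 genes nearest to Ptprc and Fcer1g, of which 1 is not reported here. Others were chosen after their values were seen. Coordinates, exon lengths and overlaps came from GENCODE M21 on GRCm38. Figures were made in Python 3.11.15 (matplotlib 3.10.9).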

Additional observations from a re-analysis of the deposited data

Results flagged for a closer look

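Log2 CPM values of the 10 genes and their 15 paralogs were checked within each fraction for a single library far from the rest by Dixon's ratio of the gap to the range, against its 95% critical value. Of 50 such groups 5 had a library past it, and chance flags about 1 in 20. In Sca-1+ 19, Fcer1g was low at 6.17 (7.49 to 7.71 in the other Sca-1+ libraries) and Rac2 was high at 4.06 (0.66 to 0.89 in the others). Among paralogs, Ptprb was low in Sca-1- 10 at -1.78 (2.61 to 3.15 in the others), Rac3 was low in Sca-1+ 13 at -0.93 (1.56 to 1.94), and Vav2 was low in Sca-1- 14 at -3.63 (1.30 to 2.89), where it had 0 counts. In Sca-1+ 19, the library that is highest in neutrophil markers, Fcer1g and Rac2 therefore departed from the other libraries in opposite directions.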

How the results depend on the processing

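Under 20 alternatives the number of the 10 genes lower in Sca-1+ stayed between 8 and 10, and the 8 genes that passed kept their direction and their side of the threshold in each. Scaling to the 20 endothelial markers called 14095 genes lower and 221 higher, 55 receptor and pathway genes lower and 1 higher, shifted the median log2 fold change of all genes to -4.37, and turned Cd68 to -3.30. By construction it treats the endothelial markers as equal in both fractions. Scaling by library size alone moved that median to 0.43. Cd52 passed under this scaling to endothelial markers (-5.89), under voom (-4.52, adjusted p = 0.0497) and wherever Sca-1+ 19 was left out. Leaving out each library in turn gave 0 to 1 of the 10 genes higher in Sca-1+ (Cd68 without Sca-1- 8) and 0 to 1 of the wider leukocyte genes higher (Lcp1 without Sca-1- 16). Without both Sca-1+ 19 and Sca-1- 16, an alternative chosen after the data were seen, 1 wider leukocyte gene was higher (Lcp1, 1.46, adjusted p = 0.0221).

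Consecutive label numbers (7 and 8, 13 and 14, 15 and 16) were tried as a replicate block over 6 libraries. It gave 2075 genes lower and 2265 higher, 9 of the 10 genes lower, and Cd52 at -6.91 (adjusted p = 0.0126). The same 6 libraries without the block gave 2592 genes lower and 2768 higher, 9 of the 10 genes lower, 5 receptor and pathway genes higher, against 8 with all libraries, and Cd52 at -7.41. The deviations of the 3 pairs from their fraction means correlated at 0.147, 0.148 and 0.042, and those of all other combinations at -0.191 to 0.065. The pairs 7 and 8 and 13 and 14 thus had the highest values, all of them small. The labels do not state pairs, these values cannot decide the question, and the main fit has no block. Depth limits Ptprc in Sca-1+ libraries, where 2 libraries had 0 counts, which allows up to 0.102 and 0.104 CPM.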

Other observations

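Cd79a, which encodes a chain of the B cell receptor, gave another order among the Sca-1- libraries than the general leukocyte genes, an observation chosen after the values were seen. It was at 4.75, 1.40, 13.3, 7.60 and 56.4 CPM in Sca-1- 8, 10, 14, 16 and 22. It peaked in Sca-1- 22, the library lowest in Tyrobp and second highest in Ptprc. Prss34, a basophil protease, was at 8295 CPM in Sca-1- 16 and 43.1 to 1082 CPM in the other Sca-1- libraries, so the libraries highest in Ptprc (16 and 22) were highest in markers of different blood cells. Jchain, a plasma cell gene, reached the level for testing in too few libraries to be tested. It was at 36.4 CPM in Sca-1+ 19 and at 0.136 to 0.863 CPM in the other Sca-1+ libraries.

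Monocyte markers were not uniform. Cd14 was at 93.5 to 226 CPM in Sca-1+ and 4.89 to 23.04 CPM in Sca-1- libraries (log2 fold change 4.12, adjusted p = 0.000171), while Csf1r overlapped between the fractions (-0.16, adjusted p = 0.779). Scaled to the endothelial markers, Cd14 was at -0.25 (adjusted p = 0.646) and Csf1r at -4.55 (adjusted p = 3.13e-05).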
